A study of Mus musculus with 58 samples.

Results

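Mapk3 and the genes of the ERK cascade were followed through striatal tissue of mice from 2 lines. The genes were taken by name: Mapk3, Map2k1, Map2k2, Braf, Araf, Ksr1 and Hras, 7 genes of the 54532 listed in the striatal RNA-seq tables and of the 18411 listed in the tables of ribosome profiling, and all 7 were found in every table. Mice of the 16p11.2 line (16p11.2 del/+) carry a hemideletion of the mouse region that corresponds to human 16p11.2, a stretch of chromosome 7 that includes Mapk3, and were bought from a supplier. Mice of the 3g line (3g del/+) keep both copies of Mapk3 and carry premature stop codons, made with CRISPR/Cas9, in 1 copy each of Taok2, Sez6l2 and Mvp, which lie in the same region, so the 3g allele changes the reading frames and removes no gene. Both lines are labelled B6129S, and each was compared with its own wild-type (wt) littermates. The animals were adult. Whole-tissue RNA-seq was made from males and females, 4 libraries per line, sex and genotype (32 in all). Ribosome footprints, and RNA from the same lysates, came from males only: 3 del/+ and 4 wt mice of the 16p11.2 line, and 3 del/+ and 3 wt mice of the 3g line.

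In the ERK cascade, receptor signals load the small GTPase Ras (Hras is one of its forms) with GTP, Ras recruits Raf kinases (Braf, Araf), Raf phosphorylates the kinases MEK1 and MEK2 (Map2k1, Map2k2), and MEK phosphorylates ERK (Mapk3 encodes ERK1). Ksr1 is a scaffold that holds Raf, MEK and ERK together. In striatal projection neurons the cascade is driven by dopamine D1 and glutamate receptors and is known for its part in drug responses and plasticity. ERK acts as an activated protein, so transcript and footprint levels say how much template and how many translating ribosomes there were, and nothing about phosphorylation.

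Mapk3 (ENSMUSG00000063065) spans chr7:126759626-126765816 in GRCm38.p6. No other annotated gene overlaps it, and the nearest gene downstream, Gdpd3, starts 6788 bases after the start of Mapk3. Hras also lies on chromosome 7, at chr7:141189934-141194019, outside the deleted region. The partners lie elsewhere: Map2k1 at chr9:64185769-64253605, Map2k2 at chr10:81105913-81124697, Braf at chr6:39603231-39725658, Araf at chrX:20797707-20860521 and Ksr1 at chr11:79013440-79146533. All 7 genes are protein coding.

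Depth differed between the assays. The RNA-seq libraries held 26592767 to 41300015 counts in the 16p11.2 line and 11711099 to 65529807 in the 3g line, the lysate RNA libraries 15102576 to 19122488, and the footprint libraries only 342052 to 678130. In the 3g line depth also differed between genotypes. Its female RNA-seq libraries held 24332636 to 36821127 counts in del/+ and 42289823 to 65529807 in wt. Its male RNA-seq libraries held 11711099 to 39716416 in del/+ and 39301819 to 55912622 in wt. Its footprint libraries held 527917 to 678130 in del/+ and 342052 to 422918 in wt. The part of depth in the 3g values was not tested. Levels are given in CPM, counts relative to the library total after TMM scaling, as mean ± SD, and changes as log2(del/+ to wt) from edgeR's quasi-likelihood test with a 95% confidence interval (CI). A gene was called when its p-value, adjusted by Benjamini-Hochberg over all genes tested in that comparison, was under 0.05. CPM is not corrected for gene length, so levels are not compared between genes. Mice of the profiling experiment are numbered within their group in the order of their labels. In whole tissue, fewer cells of a type and less RNA per cell cannot be told apart. The labels do not say that each RNA-seq library came from a separate mouse, so those p-values measure the spread between these libraries.

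A few libraries stood apart and are named before the results. An axis was drawn through the mean profile of the 3g wt females (0) and that of the 16p11.2 wt females (1) over 11385 genes called between them, and each RNA-seq library was placed on it. The library labelled 16p11.2 del/+ male 4 lay at 0.202, while the other 15 of its line lay between 0.844 and 1.21, and the library labelled 3g wt male 17 lay at 0.888, while the other 15 of its line lay between -0.0816 and 0.165. A further library, 16p11.2 del/+ female 1 by its label, held the Y-linked transcript Ddx3y at 36.6 CPM, against 0 counts in the line's other 7 female libraries, and Xist, the X-inactivation RNA, at 0.44 CPM, against 303.1 to 876 CPM. The labels were kept, and values without these libraries stand beside the results that rest on them or are gathered after the wider pathway. The 10 markers of striatal projection neurons (such as Drd1, Drd2 and Ppp1r1b) summed to between 4750 and 8815 CPM in the 32 RNA-seq libraries, whereas those of the choroid plexus, a tissue beside the striatum, summed to between 1.36 and 103 CPM.

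Mapk3 transcripts were lower in 16p11.2 del/+ males than in wt males, in every library. The del/+ males had 80.8, 90.8, 84.5 and 60.9 CPM (libraries 1 to 4), and the wt males had 180.5, 184, 177 and 191 CPM. The groups did not overlap, as was the case for 3.85% of all genes tested, and the lowest value belonged to the library labelled del/+ male 4. Means were 79.2 ± 12.9 CPM (SD, n = 4) against 183 ± 6.01 CPM (SD, n = 4), a log2 change of -1.21 (SE 0.12, 95% CI -1.48 to -0.94, edgeR adjusted p = 0.00128), or 0.432 times the wt mean. Without del/+ male 4 the log2 change was -1.11 (edgeR adjusted p = 0.000664). In this comparison 0.106% of the 17957 genes tested were called, 17 lower and 2 higher, and of the 7 genes of the cascade only Mapk3 was.

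The females of the 16p11.2 line gave the same picture. Mapk3 was at 95.9, 101.5, 108 and 91.0 CPM in the del/+ females and at 192, 219.8, 166 and 163 CPM in the wt females. The highest del/+ library lay below the lowest wt library (2.91% of all genes did not overlap here). The log2 change was -0.90 (SE 0.10, 95% CI -1.12 to -0.68, edgeR adjusted p = 0.00187), with means of 99.2 ± 7.42 and 185 ± 26.5 CPM (SD, n = 4 each). Without the library labelled del/+ female 1 it was -0.89 (edgeR adjusted p = 0.00899). Here 0.144% of 18067 genes were called, and again Mapk3 was the only one of the 7. The difference between the sexes in the effect of the deletion on Mapk3 was 0.31 (log2, 95% CI -0.02 to 0.65), with an unadjusted p of 0.0661 and an edgeR adjusted p of 0.835, and without del/+ male 4 it was 0.22. Leaving out each of the 16 libraries in turn, del/+ female 1 among them, gave values from 0.22 to 0.41, none called. That comparison called 0% of 18870 genes with edgeR (818 at an unadjusted p under 0.05, and 3 called by DESeq2).

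RNA from the lysates, a further set of male samples, showed Mapk3 lower as well. Mapk3 was at 66.7, 51.8 and 51.5 CPM in the del/+ lysates (mice 1 to 3) and at 103, 129, 98.2 and 102.9 CPM in the wt lysates (mice 1 to 4). All del/+ lysates lay below all wt lysates, in a comparison where 5.71% of all genes did not overlap. The log2 change was -0.93 (SE 0.13, 95% CI -1.22 to -0.65, edgeR adjusted p = 0.0107), with means of 56.7 ± 8.67 (SD, n = 3) and 108 ± 13.9 CPM (SD, n = 4). The call was lost without del/+ mouse 2 (log2 change -0.87, edgeR adjusted p = 0.112) and without del/+ mouse 3 (-0.87, edgeR adjusted p = 0.085). Of 14330 genes, 0.133% were called.

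Ribosome footprints on Mapk3 were few. The 3 del/+ mice had 17, 9 and 11 footprints, or 46.8, 25.02 and 32.8 CPM, and the 4 wt mice had 27, 33, 29 and 47, or 75.3, 78.4, 59.5 and 85.4 CPM. The groups did not overlap, nor did those of 6.69% of all genes tested in these footprints. The log2 change was -1.09 (95% CI -1.72 to -0.46), of a size like that in RNA, but with an unadjusted p of 0.00137 its edgeR adjusted p over 5964 genes was 0.23, so Mapk3 was not called at this depth. In footprints 0.117% of the genes were called. Translational efficiency, the change in footprints beyond the change in lysate RNA, was -0.24 for Mapk3 (log2, 95% CI -0.90 to 0.41, edgeR adjusted p = 0.942), and 0.00664% of 15071 genes were called for it. The interval leaves room for a change in either direction, so an equal loss from footprints and RNA was not shown.

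**Figure D1:**
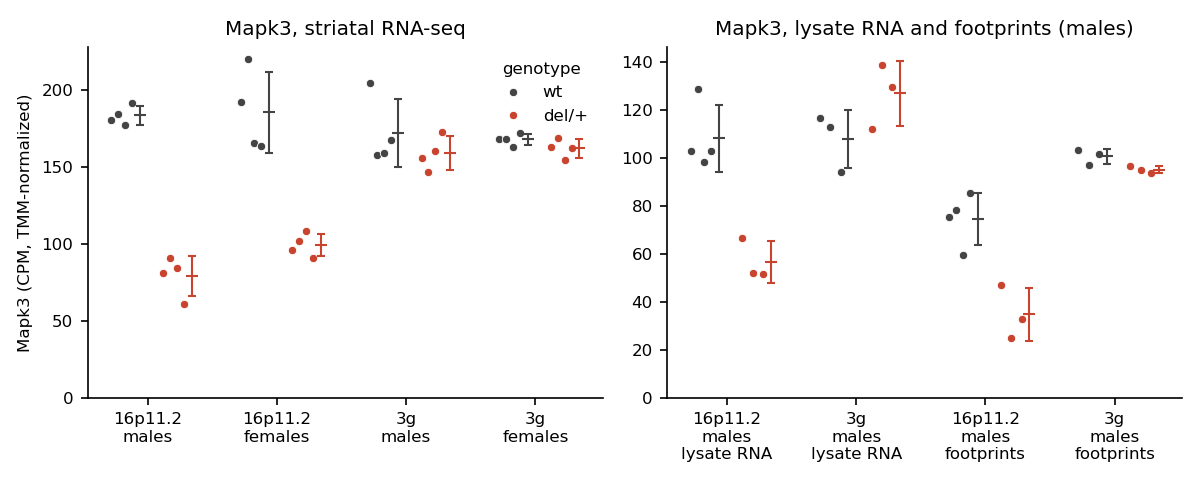
Mapk3 level (CPM after TMM scaling, linear axis from 0) in each library, wt in grey and del/+ in red, with the mean and SD of each group beside its points. Left, striatal RNA-seq of both sexes (4 libraries per group). Right, lysate RNA and ribosome footprints of males (3 or 4 mice per group). The 8 del/+ RNA-seq libraries of the 16p11.2 line lie between 60.9 and 108 CPM and its 8 wt libraries between 163 and 219.8 CPM, whereas the genotypes of the 3g line lie close together.

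In the 3g line, which keeps both copies of Mapk3, its transcripts did not pass the test. The 3g del/+ males had 156, 146, 160 and 173 CPM (libraries 25, 27, 32 and 33) and the wt males 205, 158, 159 and 167 CPM (libraries 17, 24, 26 and 34). The groups overlapped (1.95% of all genes did not), and the highest value was that of the library labelled wt male 17. The log2 change was -0.12 (95% CI -0.34 to 0.10, edgeR adjusted p = 0.974), and without wt male 17 it was -0.02. In the females, del/+ libraries held 163, 169, 154 and 162 CPM and wt libraries 168, 168, 163 and 172 CPM, a log2 change of -0.05 (95% CI -0.13 to 0.03, edgeR adjusted p = 0.614). That interval, the narrowest of the 8 for Mapk3, bounds a fall at 0.13 on the log2 scale. Few genes of any kind were called in this line: 0% of 19081 in males (edgeR; 274 at an unadjusted p under 0.05, and 1 by DESeq2) and 0.00526% of 19024 in females.

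In 3g lysates Mapk3 was at 112, 139 and 129.7 CPM in del/+ mice 1 to 3 and at 117, 113 and 94.2 CPM in wt mice 1 to 3. The groups overlapped, unlike those of 9.65% of all genes tested, with a log2 change of 0.23 (95% CI -0.01 to 0.48, unadjusted p = 0.0608, edgeR adjusted p = 0.94). Its footprints were 96.8, 95.0 and 93.6 CPM in the same del/+ mice and 103, 97.2 and 101.6 CPM in the wt mice. Those values did not overlap (13.3% of all genes tested in 3g footprints did not), but they lay within a narrow range and the change was -0.08 (95% CI -0.56 to 0.40, edgeR adjusted p = 0.964). Calls made up 0.0209% of 14378 genes in 3g lysate RNA and 0.0132% of 7553 in footprints. For translational efficiency, Mapk3 was at -0.28 (95% CI -0.80 to 0.23, edgeR adjusted p = 0.838), in a test that called 0% of 15137 genes (edgeR; 1161 at an unadjusted p under 0.05, and 26 by DESeq2).

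The effect of genotype on Mapk3 differed between the lines, by a test of that difference. In males the 16p11.2 effect was lower than the 3g effect by 1.09 on the log2 scale (log2 difference -1.09, 95% CI -1.43 to -0.75, edgeR adjusted p = 0.00732), and in females by 0.85 (log2 difference -0.85, 95% CI -1.09 to -0.60, edgeR adjusted p = 0.00115). Without del/+ female 1 the female difference was -0.83 (edgeR adjusted p = 0.00355). Without the 2 male libraries that lay on the other line's side of the axis the male difference was -1.08 (edgeR adjusted p = 9.68e-05). These tests called 0.077% of 19488 genes in males and 0.128% of 19546 in females. None of the 6 partners was called in either. Between the sexes, the 3g effect on Mapk3 differed by 0.07 (log2, 95% CI -0.16 to 0.30, edgeR adjusted p = 0.908), or -0.03 without wt male 17, and 0% of 19830 genes were called there (edgeR; 533 at an unadjusted p under 0.05, and 0 by DESeq2).

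The genes whose pattern was most like that of Mapk3 were its neighbours on chromosome 7. Over the 32 RNA-seq libraries, each gene's log2(CPM + 0.5) was centred on the wt mean of its own line and sex, and 17421 genes were ranked by their root mean square (RMS) difference from Mapk3. The closest 5 were Kctd13 (RMS difference 0.104), Cd2bp2 (0.115), Maz (0.119), Cdipt (0.123) and Ppp4c (0.131), against a median of 0.574 over all genes. They lie within the stretch from Ppp4c, at chr7:126785866-126792557, to Cd2bp2, at chr7:127191660-127196077. In 16p11.2 males their log2 changes ran from -1.24 (Kctd13) to -1.09 (Cd2bp2) and in females from -1.11 (Ppp4c) to -1.03 (Cdipt), each with an edgeR adjusted p of at most 0.00344. In the 3g line none of these 5 genes was called. Of 22 listed neighbours of Mapk3 in the deleted region, 21 were tested in each sex of the 16p11.2 line, and 13 in males and 15 in females were called, all lower, with medians of -1.05 in both sexes. Without the libraries that stood apart, 13 of 22 tested were called in males and 13 of 21 in females, all lower, with medians of -1.10 and -1.08, and the 5 named genes were called in both sexes (edgeR adjusted p at most 0.0124). The ranking by likeness changed: over the 29 remaining libraries the closest 5 were Maz (0.0903), Ino80e (0.107), Cd2bp2 (0.107), Kctd13 (0.108) and Tbc1d10b (0.113), against a median of 0.487.

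At the top of the cascade, Hras varied more between libraries than between genotypes. In 16p11.2 males it was at 212, 176, 233 and 120.2 CPM in del/+ (libraries 1 to 4) and at 249.6, 214, 238 and 215 CPM in wt. The lowest value was that of the library labelled del/+ male 4. The log2 change of -0.31 (95% CI -0.70 to 0.08, edgeR adjusted p = 0.742) became -0.15 without that library. In 3g males the del/+ libraries held 163, 139.8, 146 and 157 CPM and the wt libraries 237, 137, 157 and 152 CPM, and the highest was the library labelled wt male 17. The log2 change of -0.17 (95% CI -0.52 to 0.17, edgeR adjusted p = 0.974) became 0.02 without it.

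Set on 1 scale over all 32 libraries, Hras was at 130 to 155 CPM in 15 libraries of the 3g line and at 181 to 312 CPM in 15 of the 16p11.2 line. The library labelled 3g wt male 17 had 230 CPM and the library labelled 16p11.2 del/+ male 4 had 123 CPM, each on the other line's side. Mapk3 showed the same order among libraries with both copies: 138 to 167 CPM in the 15 libraries of the 3g line, 198 CPM in 3g wt male 17 and 173 to 233 CPM in the 8 wt libraries of the 16p11.2 line. Braf went the other way, with 146 to 173 CPM in the 3g line, 131 CPM in 3g wt male 17, 115 to 149 CPM in the 16p11.2 line and 153 CPM in 16p11.2 del/+ male 4. Araf separated the lines as well, at 149 to 166 CPM and 128 to 146 CPM. Here 3g wt male 17 (145 CPM) lay on the other line's side, but 16p11.2 del/+ male 4 (138 CPM) stayed on its own. Levels of Map2k1, Map2k2 and Ksr1 overlapped between the lines (Map2k2 at 69.6 to 82.8 and 73.5 to 83.8 CPM). The 6 oligodendrocyte markers moved with the axis. They summed to 4071 to 7281 CPM in the 3g line and 8527 to 14070 CPM in the 16p11.2 line, with 10784 CPM in 3g wt male 17 and 5496 CPM in 16p11.2 del/+ male 4. The 4 cortical neuron markers (led by Slc17a7) summed to 33.1 to 608 CPM in the 3g line and 715 to 1267 CPM in the 16p11.2 line. For these, 3g wt male 17 (865 CPM) lay on the other line's side, whereas 16p11.2 del/+ male 4 (761 CPM) stayed within its own line's range. The line cannot be told apart from whatever else differed between the libraries of the 2 lines, and the part of these markers in the levels was not tested.

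**Figure D2:**
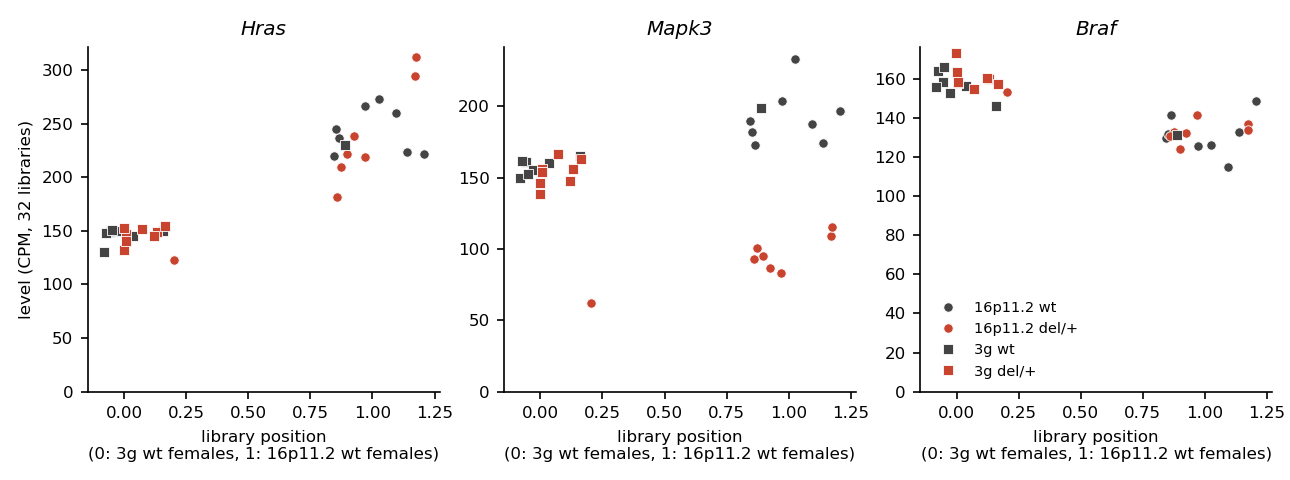
Level of Hras, Mapk3 and Braf (CPM, 32 RNA-seq libraries on 1 scale, linear axes from 0) against the position of each library between the 3g wt females (0) and the 16p11.2 wt females (1). Circles are the 16p11.2 line, squares the 3g line, grey wt and red del/+. One 3g wt library lies at 0.888 and one 16p11.2 del/+ library at 0.202, with 230 and 123 CPM of Hras and 131 and 153 CPM of Braf. The 8 del/+ libraries of the 16p11.2 line have less Mapk3 than each of the other 24 libraries.

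In the other comparisons Hras was not called. In 16p11.2 females its log2 change was 0.05 (95% CI -0.22 to 0.32), or 0.13 without del/+ female 1, in 3g females -0.01 (95% CI -0.07 to 0.06), in 16p11.2 lysates -0.20 (95% CI -0.53 to 0.13) and in 3g lysates 0.29 (95% CI 0.003 to 0.58, unadjusted p = 0.0477, edgeR adjusted p = 0.94). In footprints it changed by 0.27 (95% CI -0.23 to 0.77) in the 16p11.2 line and -0.05 (95% CI -0.58 to 0.47) in the 3g line.

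Among the Raf kinases, Braf departed most in footprints, and in opposite directions in the 2 lines. In the 3 del/+ mice of the 16p11.2 line it had 71.6, 89.0 and 62.6 CPM (26, 32 and 21 footprints), and in the 4 wt mice it had 97.6, 133, 156 and 109 CPM (35, 56, 76 and 60 footprints). All del/+ values lay below all wt values, and 6.69% of all genes tested did not overlap in these footprints. The log2 change was -0.74 (95% CI -1.24 to -0.23), with an unadjusted p of 0.00576 and an edgeR adjusted p of 0.491. In the 3g line the del/+ mice had 155, 193 and 144.0 CPM and the wt mice had 74.7, 108 and 143.9 CPM. Here the lowest del/+ value lay just above the highest wt value, with a log2 change of 0.59 (95% CI 0.06 to 1.13, unadjusted p = 0.0315, edgeR adjusted p = 0.553). In 3g footprints 13.3% of all genes tested did not overlap. Braf RNA in the same lysates changed by -0.03 (95% CI -0.25 to 0.18) and -0.002 (95% CI -0.23 to 0.22), and translational efficiency was -0.79 in the 16p11.2 line (unadjusted p = 0.00479, edgeR adjusted p = 0.736) and 0.63 in the 3g line (unadjusted p = 0.0317, edgeR adjusted p = 0.617). No Braf value was called, and the difference between the lines in footprints was not tested.

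Braf transcripts in whole-tissue RNA-seq changed by 0.09 in 16p11.2 males, 0.00 in 16p11.2 females, 0.10 in 3g males and 0.03 in 3g females, with adjusted p-values from edgeR of 0.807 (3g females) or more. Without the libraries that stood apart the first 3 values were 0.04, -0.01 and 0.03. Araf, an X-linked gene, stayed within 0.03 of 0 on the log2 scale in all 4 RNA-seq comparisons, with and without those libraries. In 16p11.2 females, for example, its del/+ libraries held 132, 122, 125 and 129.5 CPM and its wt libraries 127, 133, 122 and 128 CPM. The change there was 0.00 (95% CI -0.13 to 0.13), and leaving the sample labelled del/+ female 1 in or out did not lead to a call. In footprints Araf changed by -0.22 and -0.31, neither called.

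The scaffold gene Ksr1 changed in RNA-seq by between -0.08 (3g females) and 0.05 (16p11.2 males) on the log2 scale, with no call. Without the libraries that stood apart it was at -0.03 in 16p11.2 males, -0.14 in 16p11.2 females and -0.02 in 3g males. Its footprints were higher on average in both lines, by 0.40 (95% CI -0.22 to 1.03) in the 16p11.2 line and 0.39 (95% CI -0.30 to 1.08) in the 3g line, from 13 to 30 and from 12 to 38 footprints per mouse. The groups overlapped in both lines, and neither value was called (edgeR adjusted p = 0.92 and 0.813).

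The MEK genes did not pass the test in any comparison of genotype. Map2k1 changed by -0.09 and -0.07 in males and females of the 16p11.2 line. Without the libraries that stood apart those values were -0.08 and -0.07. In 3g females its del/+ libraries (318.4, 299.9, 314 and 317 CPM) all lay below its wt libraries (330.0, 326, 326 and 322 CPM), and 5.66% of all genes did not overlap in this comparison, but the change was small, -0.06 on the log2 scale (95% CI -0.13 to 0.01, edgeR adjusted p = 0.497). Map2k2 changed by at most 0.03 in size in the 4 RNA-seq comparisons, and by -0.04 in 16p11.2 females without del/+ female 1. In 3g footprints, by contrast, Map2k2 was at 85.5, 59.8 and 59.4 CPM in the del/+ mice and at 138, 83.7 and 121 CPM in the wt mice. Those groups overlapped, with a log2 change of -0.75 (95% CI -1.32 to -0.18, unadjusted p = 0.0124, edgeR adjusted p = 0.452). In 16p11.2 footprints the value was -0.12 (95% CI -0.70 to 0.47). Over the 6 partners, the 14 comparisons of genotype and all alternatives tried gave 1184 values, of which 0 were called.

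**Figure D3:**
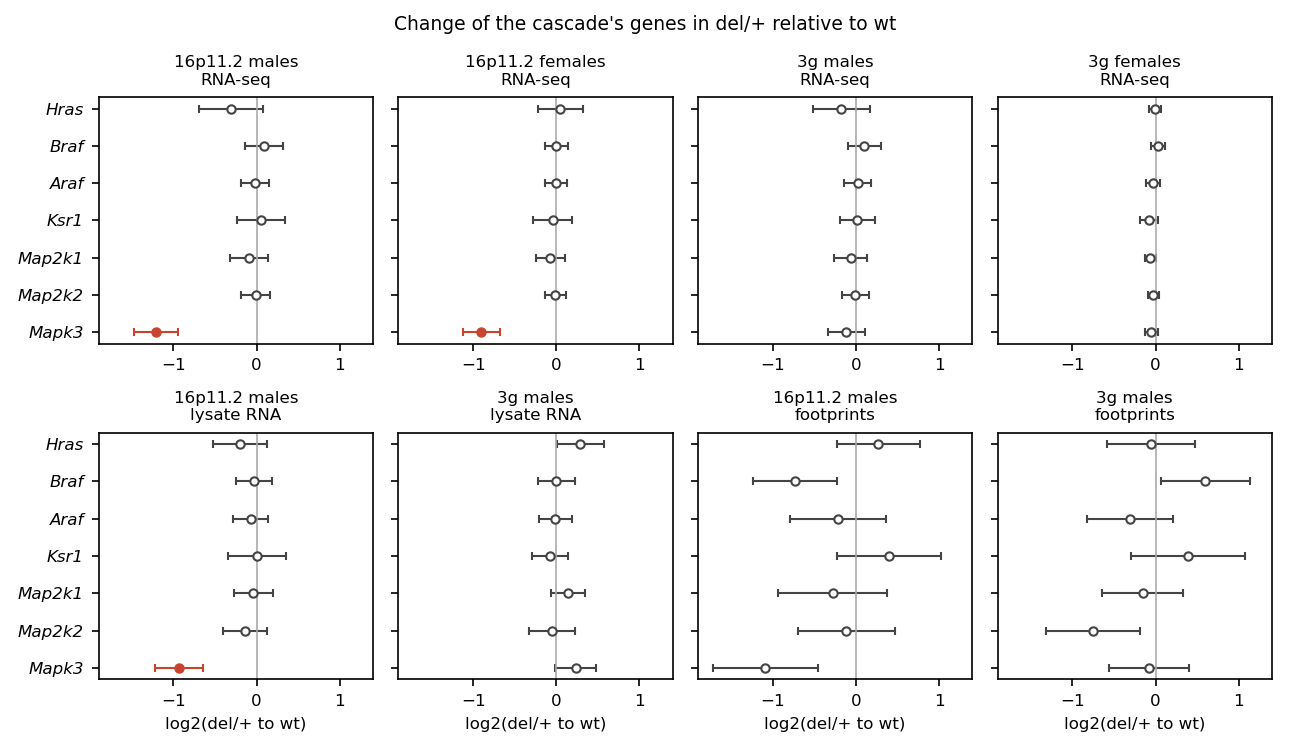
Log2 change of each gene in del/+ relative to wt, with its 95% confidence interval, in the 4 RNA-seq comparisons (top) and in lysate RNA and footprints of males (bottom). Filled red points passed an adjusted p of 0.05. They are Mapk3 in 16p11.2 males, females and lysates, at -1.21, -0.90 and -0.93, and the footprint intervals are wider than those of RNA.

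Footprints relative to RNA of the same lysates were read for each gene from wt mice. Lengths of transcripts and coding sequences did not enter, so the ratio is not a density of ribosomes. It compares a gene with all other genes, since both assays are scaled to their totals. Many genes were called: 46.6% of 13682 genes in the 16p11.2 line and 44.3% of 13963 in the 3g line. RNA levels also differed between lysates and RNA-seq. In the comparisons of genotype, Map2k2 of 16p11.2 wt males was at 18.7 CPM in lysates and 75.6 CPM in RNA-seq. Braf was at 220 and 127 CPM, and Mapk3 at 108 and 183 CPM. The part of this difference in the ratios was not tested. Mapk3 was under-represented among footprints in both lines. It was at 63.4 ± 9.12 CPM in footprints and 119 ± 16.1 CPM in lysate RNA of the 4 wt mice of the 16p11.2 line, a log2 difference of -0.91 (95% CI -1.25 to -0.56, edgeR adjusted p = 0.000142). In the 3 wt mice of the 3g line the values were 77.2 ± 1.67 and 134 ± 15.5 CPM, a log2 difference of -0.79 (95% CI -1.18 to -0.40, edgeR adjusted p = 0.00314).

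Map2k2 and Braf lay at the ends of the range. Map2k2 was higher among footprints, by 1.37 in the 16p11.2 line (53.5 ± 9.52 against 20.6 ± 1.08 CPM, edgeR adjusted p = 3.06e-06) and by 1.58 in the 3g line (87.5 ± 20.5 against 29.1 ± 3.23 CPM, edgeR adjusted p = 3.57e-05). Map2k1, which encodes the other MEK, was not called in either line (log2 difference -0.12 and 0.25). Braf had the largest deficit, -1.20 (105 ± 23.0 against 243 ± 16.2 CPM, edgeR adjusted p = 3.15e-06) and -1.87 (83.4 ± 26.3 against 304 ± 9.64 CPM, edgeR adjusted p = 2.46e-05).

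Araf and Ksr1 passed the test in the 16p11.2 line, Araf at -0.72 (edgeR adjusted p = 0.000768) and Ksr1 at 0.82 (edgeR adjusted p = 0.00405), but not in the 3g line, where they were at -0.31 (edgeR adjusted p = 0.189) and 0.24 (edgeR adjusted p = 0.41). Whether they differ between the lines was not tested. Hras was not called in either line (-0.20 and 0.17). A footprint library of this depth held between 12 and 76 footprints per gene in wt mice.

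**Figure D4:**
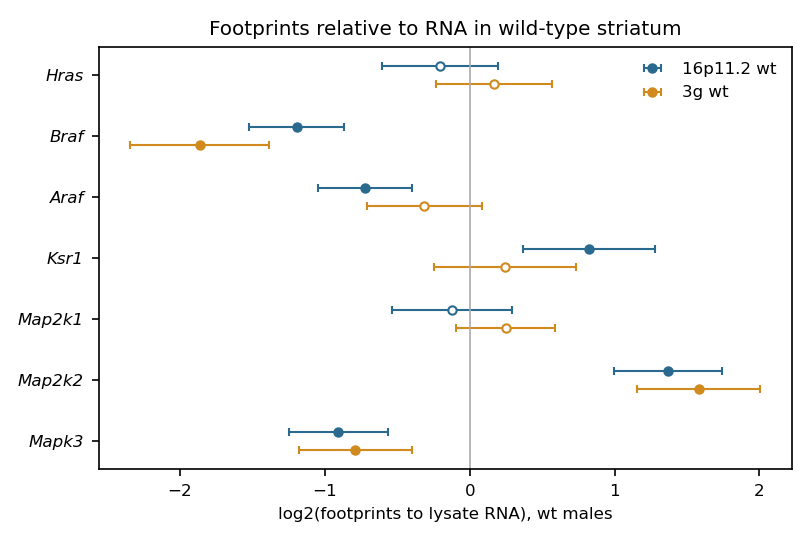
Log2 ratio of footprints to lysate RNA of each gene in wt males of the 16p11.2 line (blue, 4 mice) and of the 3g line (orange, 3 mice), with 95% confidence intervals. Filled points passed an adjusted p of 0.05. Map2k2 lies to the right of 0 in both lines (1.37 and 1.58), and Braf (-1.20 and -1.87) and Mapk3 (-0.91 and -0.79) lie to the left.

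The wider pathway was read from 94 listed genes, of which 93 were in every table. Beside the genes of the ERK cascade, the list took in other MAP kinases, such as Mapk8, Mapk10 and Mapk15. In the 16p11.2 line 1 of 94 tested genes was called in males, 1 of 93 in females and 1 of 90 in lysate RNA, each time Mapk3, and 0 of 70 in footprints (edgeR; 3 at an unadjusted p under 0.05, and 0 called by DESeq2). These shares stand beside the 0.106%, 0.144%, 0.133% and 0.117% of all genes given above. The median log2 change of the listed genes was -0.02 in males, 0.00 in females, 0.01 in lysate RNA and 0.01 in footprints, beside -0.01, 0.00, 0.00 and -0.01 over all genes tested.

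By role, 0 of 11 receptors and adaptors, 0 of 9 Ras inhibitors, 0 of 11 phosphatases, 0 of 10 substrates and 0 of 16 target genes of ERK were called by edgeR in either sex of that line. Nor were any of the 11 Ras GTPases and exchange factors, 7 Raf kinases and regulators, 8 scaffolds and anchors or the other MAP kinases. Rasgrp1, a Ras exchange factor of striatal neurons, held 716 ± 48.2 CPM among del/+ and 739.5 ± 86.2 CPM among wt males (log2 change -0.05). Ptpn5, the striatal phosphatase STEP, which acts on ERK, was at 776 ± 132 and 799.6 ± 119.6 CPM (-0.04). Arc, an activity-induced gene downstream of ERK, was at 229.6 ± 249 and 289 ± 186 CPM in males (-0.33, edgeR adjusted p = 0.915), and at 252 ± 56.6 and 213 ± 87.5 CPM in females (0.24, edgeR adjusted p = 0.998). The spread of Arc between libraries was wide in males, where the SD of the del/+ libraries exceeded their mean. The phosphatase gene Dusp15, named as the largest change of its list without overlap, did not overlap between the male groups, 17.9 ± 5.06 CPM for del/+ against 11.9 ± 1.70 CPM for wt (log2 change 0.58, edgeR adjusted p = 0.742). Of all genes tested in these males, 3.85% did not overlap. The paper counts Dusp15 among the genes that differed in males of both lines. Here it was called in 16p11.2 males by neither edgeR nor DESeq2. Footprints on Grb2, an adaptor between receptors and Ras that was named by the same rule, were at 106 ± 24.6 and 64.6 ± 6.78 CPM (log2 change 0.72, edgeR adjusted p = 0.542). In those footprints 6.69% of all genes tested did not overlap.

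In the 3g line 0 of 92 pathway genes were called by edgeR in males (1 at an unadjusted p under 0.05, and 0 by DESeq2), 0 of 93 in females (19, and 1 by DESeq2), 0 of 90 in lysate RNA (5, and 1 by DESeq2) and 0 of 77 in footprints (9, and 0 by DESeq2). In females all 16 ERK target genes had a log2 change above 0, with a median of 0.29 beside 0.00 over all genes. Their smallest edgeR adjusted p was 0.254 (Dusp6, with 40.8 ± 7.53 CPM for del/+ against 29.997 ± 3.52 CPM for wt). Egr1, for example, was at 257 ± 66.0 and 184 ± 45.4 CPM (log2 change 0.49, edgeR adjusted p = 0.377), and the groups overlapped. In the other RNA-seq comparisons the same list had 8 of 16 above 0 in 3g males (median 0.00), 11 of 16 in 16p11.2 females (median 0.20) and 3 of 16 in 16p11.2 males (median -0.10). Across all genes of the 3g female comparison, 2098 of 19024 had an unadjusted p under 0.05.

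Markers of several cell types also leaned to 1 side between 3g del/+ and wt females, without a call. All 4 cortical neuron markers were above 0 (median log2 change 0.79), whereas 0 of 6 oligodendrocyte (median -0.14), 0 of 5 astrocyte (-0.08), 0 of 5 microglia (-0.09) and 0 of 4 endothelial markers (-0.02) were, and the 2 choroid plexus markers tested, of 4 listed, had a median of -1.66. None of these markers was called. Markers of striatal projection neurons were above 0 for 7 of 10 (median 0.02). The cortical neuron markers summed to 459, 608, 432 and 154 CPM in 3g del/+ females 28, 31, 36 and 37 and to 152, 109, 145 and 539 CPM in wt females 29, 30, 35 and 39, and the oligodendrocyte markers to 5313 to 5997 CPM in del/+ and 5572 to 7281 CPM in wt. The part of these markers in the target gene values was not tested. Without wt female 39, 4 genes of the wider list were called in 3g females (Mapk8, Mapk10, Mapk11 and Mapk15). All 4 belong to its other MAP kinases and not to the ERK cascade followed here. Without del/+ female 37 only Mapk15 was called, which del/+ females held at 0.368 CPM and wt females at 1.24 CPM. Calls over all genes rose as well, from 1 with all libraries to 175 without wt female 39 and to 18 without del/+ female 37. In 3g lysate RNA, Fosb, an activity-induced gene, was nearest to a call, with del/+ lysates at 18.4 ± 0.738 CPM and wt lysates at 10.5 ± 1.54 CPM (log2 change 0.81, edgeR adjusted p = 0.065), and it was called by DESeq2 (among 13 genes in all) and without wt mouse 2 (among 6), against 3 genes called as reported. Fosb in RNA-seq of males of that line changed by -0.07 (edgeR adjusted p = 0.979).

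Footprints of the wider pathway in the 3g line had a median log2 change of 0.05 over 77 genes, beside -0.01 over all genes. The median was 0.00 in male RNA-seq, 0.04 in female RNA-seq and 0.02 in lysate RNA. Ptprr, a phosphatase gene acting on ERK, had 16.6 ± 4.49 CPM of footprints in del/+ and 39.3 ± 9.56 CPM in wt (log2 change -1.21, edgeR adjusted p = 0.426). Rasgrp2, an exchange factor gene, had 110.5 ± 38.5 and 177 ± 20.3 CPM (-0.70, edgeR adjusted p = 0.486). Pea15a, whose product holds ERK in the cytoplasm, had 258 ± 27.5 and 184 ± 23.0 CPM (0.49, edgeR adjusted p = 0.603). None of the 3 was called. Being without overlap was part of the rule that named such genes, and 13.3% of all genes tested in these footprints did not overlap.

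Values of the wider pathway in RNA-seq were taken again without the libraries that stood apart (del/+ male 4 and del/+ female 1 of the 16p11.2 line and wt male 17 of the 3g line). Mapk3 was again the only pathway gene called, with 1 of 94 in 16p11.2 males, 1 of 93 in 16p11.2 females and 0 of 92 in 3g males (edgeR; 4 at an unadjusted p under 0.05 in the last), and the medians were -0.04, -0.01 and 0.02. Over all genes 0.105%, 0.12% and 0% were called. Of the 16 ERK target genes 0, 12 and 13 were then above 0, with medians of -0.18, 0.15 and 0.07. Dusp15 changed by 0.37 in 16p11.2 males (edgeR adjusted p = 0.994), Arc by -0.28 in males and 0.24 in females of that line, and Rasgrp1 and Ptpn5 by -0.04 and -0.05 in its males.

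As a check of the labels, the genes targeted in the 3g line were read too. Sez6l2 transcripts changed by -0.57 in 3g males (edgeR adjusted p = 0.807) and -0.49 in females (edgeR adjusted p = 0.00336), the only gene called there. Mvp changed by -0.37 (edgeR adjusted p = 0.974) and -0.48 (edgeR adjusted p = 0.0663). Taok2 was at -0.02 in both sexes (edgeR adjusted p = 0.986 and 0.82), with overlapping groups. By qPCR the paper reports lower striatal mRNA of Taok2, Sez6l2 and Mvp alike, a fall that these RNA-seq values do not show for Taok2. Without wt male 17 the values in 3g males were -0.53 for Sez6l2 (edgeR adjusted p = 0.142), -0.41 for Mvp and -0.03 for Taok2, none called.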

How the data were processed

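Counts per gene were deposited by the authors for each library, with no normalization. The submitters' processing notes name HTSeq and the build mm10 for the RNA-seq tables (a stranded total RNA kit and the bcbio-nextgen pipeline, per the study's methods) and Bowtie2 and mm39 for lysate RNA and footprints. The counter of the latter, the annotations and the strand setting are not given in the sources used here. Coordinates are from RefSeq (GRCm38.p6) and are given for the RNA-seq build only. The labels' extraction text speaks of human brains, while the tables list mouse genes.

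Samples were grouped by the labels. Each comparison was fitted over all genes with edgeR 4.0.16 in R 4.3.3 (filterByExpr, TMM, glmQLFit, glmQLFTest), translational efficiency as the interaction of genotype and assay in 1 fit, and tested on simulated data. DESeq2 1.42.0, RLE scaling, no filter, a block for replicate number or mouse, 1 fit of all 16 libraries of a line, and leaving out each library or mouse were alternatives. Named genes, lists and the likeness ranking were also taken without 3 libraries that stood apart, a choice made after seeing the data. Footprint and lysate RNA libraries with the same number came from the same lysate, and their deviations from the group means correlated at 0.0617 to 0.142 in the 16p11.2 line (7 mice) and 0.05 to 0.112 in the 3g line (6 mice). The pseudocount of the likeness ranking was 0.5 CPM.

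Genes named are the 7, called genes of the lists, and otherwise at most 2 per list (the largest change without overlap and the highest mean), with the 5 genes most like Mapk3. Genes called under an alternative only, and those named as examples beside these, were chosen after their values were seen. The genes and lists were chosen with earlier results of these data known. A further planned value is not reported here.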

Additional observations from a re-analysis of the deposited data

Results flagged for a closer look

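The effect of genotype on Mapk3 differed between the lines by a test of the difference itself, at -1.09 (log2) in males and -0.85 in females. Within groups of 4, 6 of 70 checks of the 7 genes found a library far from the other 3 by Dixon's test, where chance alone gives about 1 in 20. Map2k1 was at 309 CPM in 16p11.2 wt male 4, with the others at 248 to 257 CPM, and at 276 CPM in the library labelled 3g wt male 17, with the others at 327 to 335 CPM. Map2k2 was at 85.8 CPM in 3g del/+ male 33 (others 73.2 to 75.1 CPM) and at 76.1 CPM in 3g wt female 35 (others 78.2 to 78.4 CPM). In lysate RNA of 16p11.2 wt males, Mapk3 was at 129 CPM in wt mouse 2 (others 98.2 to 103.0 CPM) and Araf at 72.7 CPM in wt mouse 3 (others 83.5 to 85.1 CPM).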

How the results depend on the processing

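Of 1477 values under alternatives, 1466 stayed the same. For a gene this meant the same side of the threshold, and for a count of called pathway genes the same count. No gene that was called in either fit changed direction. Of those 1466, 142 changed sign around 0 without being called, so no direction is read from them. Leaving out 1 lysate, Mapk3 in 16p11.2 lysate RNA ranged from -1.07 to -0.84 and lost its call without del/+ mouse 2 (edgeR adjusted p = 0.112) or 3 (0.085), so that 0 or 1 pathway genes were called there. In 3g females the pathway count of 0 became 1 with DESeq2 (Mapk15) and 2 without a filter on low counts (Mapk15 and Dusp6), and ran from 0 to 4 when 1 library was left out, while calls over all genes rose from 1 to 109, 158 and, without wt female 39, 175. In 3g lysate RNA it became 1 with DESeq2, 1 without a filter and 0 to 1 when 1 lysate was left out, each time Fosb, while calls over all genes went from 3 to 13, 9 and 3 to 12. The cause of these changes was not tested. DESeq2 gave no adjusted p in 18 of 112 cases, among them Mapk3 footprints in both lines. Replicate numbers in the 16p11.2 RNA-seq labels were not taken as pairs. Same-numbered deviations correlated at -0.219 to 0.0988 in males and -0.0525 to 0.118 in females. Those of different numbers correlated at -0.279 to 0.321 and -0.238 to 0.284. Libraries of 1 lysate correlated at no more than 0.142, so these values cannot decide whether the numbers pair the libraries. With the replicate block Mapk3 was at -1.23 (edgeR adjusted p = 0.0351) in males and -0.90 (0.00605) in females. With the mouse as a block, translational efficiency of Mapk3 was -0.21 and -0.29, and no call changed.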
